A study of Homo sapiens with 18 samples.

Results

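MCF-10A cells depleted of ERCC4 by a stable short hairpin RNA (shERCC4) were set directly against MCF-10A cells depleted of ERCC6 in the same manner (shERCC6), without the control line in between. The comparison covered every gene that reached 1 TPM (an abundance per transcript length, scaled to the same sum in each library) in 3 or more of the 6 libraries of these lines, which were 14274 of the 22031 entries in the table. MCF-10A is an established line of non-malignant human mammary epithelium with basal features. The series holds 18 RNA-seq libraries of 6 such lines, with hairpins against 5 nucleotide excision repair genes and a non-target control (shCON), and each line has 3 libraries, described as independent biological replicates. All lines were infected with lentiviral particles and selected with puromycin until resistant colonies grew, and no DNA-damaging agent is named for these libraries. Each gene was targeted with a single hairpin clone in a single stable line, so that the depleted gene, the hairpin and the line cannot be told apart in any difference below, and the p-values measure only the spread between the 3 libraries of a line.

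ERCC4 encodes XPF, the catalytic subunit of the ERCC1-XPF nuclease, which cuts the damaged strand on the 5′ side of a lesion in nucleotide excision repair and also acts at interstrand crosslinks. ERCC6 encodes CSB, a SWI2/SNF2-type ATPase that binds RNA polymerase II stalled at a lesion, starts the transcription-coupled branch of the pathway and takes part in transcription more widely. Loss of XPF therefore affects both branches of excision repair, and loss of CSB the transcription-coupled one. Many of the genes below belong to the differentiation of stratified epithelia, in which basal cells with keratins 5 and 14 give way to suprabasal cells with other keratins. These cells assemble a cornified envelope from involucrin and small proline-rich proteins, and secrete kallikreins, serine proteases that activate one another in a cascade and cleave the links between the outermost cells.

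Pearson correlations of log2(TPM + 0.5) lay between 0.967 and 0.976 within shERCC4, between 0.970 and 0.972 within shERCC6, and between 0.955 and 0.962 across the lines. A pair of shERCC4 libraries stood apart. In shERCC4 replicate 1 a single entry, CTD-2328D6.1, held 26.4% of all TPM, against 5.08% to 6.84% in the other shERCC4 libraries and 4.81% to 6.56% in shERCC6, and another, AC010970.2, held 8.19%, against 2.45% to 2.90% and 3.06% to 3.94%. TPM has a fixed sum, and the median gene of this library was 0.42 below the shERCC6 mean on the log2 scale, against 0.05 and 0.07 below in the other shERCC4 libraries. Dividing by median-of-ratios size factors (0.783, 1.02 and 1.02 in shERCC4, and 1.08, 1.08 and 1.05 in shERCC6) brought the median difference of all genes tested to 0.01, against -0.18 as deposited, and results that depend on this step are given both ways. In shERCC4 replicate 3, several differentiation genes were higher than in the other libraries of that line: KRT10, a suprabasal keratin, had 97.0, 139.0 and 564.1 TPM in shERCC4 and 203.2, 237.7 and 228.9 TPM in shERCC6, and S100A9, a calcium-binding alarmin, had 605.8, 808.4 and 2398 TPM against 1870, 1903 and 1938 TPM. The number of sequenced reads behind each value is not given by TPM, so that depth and counting error are unknown.

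The 10 basal mammary markers summed to 4026 to 5675 TPM in shERCC4 and 10198 to 10815 TPM in shERCC6, with 5497 to 5826 TPM in shCON, and 7 of the 10 were lower in shERCC4 by the test described below, against 4 after scaling and 4 without shERCC4 replicate 1. Luminal markers summed to 299.6 to 419.6 TPM in shERCC4 and 386.1 to 409.7 TPM in shERCC6. Fibroblast markers summed to 88.8 to 139.3 and 95.9 to 105.5 TPM, with 4 of the 7 listed under 1 TPM in all 6 libraries, and leukocyte markers to 16.7 to 25.8 and 18.8 to 21.4 TPM, in the same order of lines. In bulk RNA, fewer cells that express a gene and less of its RNA per cell cannot be told apart.

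The targeted genes came first. ERCC4 (chr16:13920157-13952345, hg38 as for all positions here) had 5.05, 5.77 and 5.30 TPM in shERCC4, 9.99, 9.19 and 6.93 TPM in shERCC6, and 12.5, 12.8 and 14.2 TPM in shCON. Every shERCC4 library lay below every shERCC6 library, and the log2 fold change was -0.64 (SE 0.21, q = 0.0531 by limma), just outside the threshold. After median-of-ratios scaling it was -0.45 (SE 0.16, q = 0.0727), under the 1.5-fold threshold as well. Without shERCC6 replicate 1 it was -0.53 (q = 0.234). ERCC6 (chr10:49455368-49539538) had 11.6, 12.8 and 12.6 TPM in shERCC4 and 10.96, 10.2 and 13.3 TPM in shERCC6, against 25.2, 28.3 and 24.9 TPM in shCON. The ERCC6 mRNA thus did not separate the lines (0.10, SE 0.19, q = 0.489), and was lower than the shCON libraries in both of them. The shERCC4 libraries thus had the lowest ERCC4 level of the 3 lines, as their labels name them, whereas the ERCC6 mRNA cannot tell the shERCC6 libraries from the shERCC4 ones.

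A gene was called when its Storey q was below 0.05 and its fitted difference exceeded 1.5-fold, from limma on log2(TPM + 0.5) over the 6 libraries. In shERCC4, 151 genes were higher than in shERCC6 (1.06% of those tested) and 1163 were lower (8.15%), or 9.21% in either direction. After median-of-ratios scaling, 371 of 14290 genes were higher (2.6%) and 588 were lower (4.11%). The lower calls outnumbered the higher ones both ways, but by less after scaling, and 142 higher and 575 lower genes were called in the same direction both ways. Among the genes tested, all 3 shERCC4 libraries lay above all 3 shERCC6 libraries for 530 (3.71%) and below them for 3801 (26.6%). Without shERCC4 replicate 1 the lower genes numbered 567, of which 558 were among the 1163, and the higher genes numbered 182. Through the filter itself, 100 genes were tested that reached 1 TPM in every shERCC6 library and in no shERCC4 library, and 46 genes the other way round. Such genes had to differ.

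**Figure D1:**
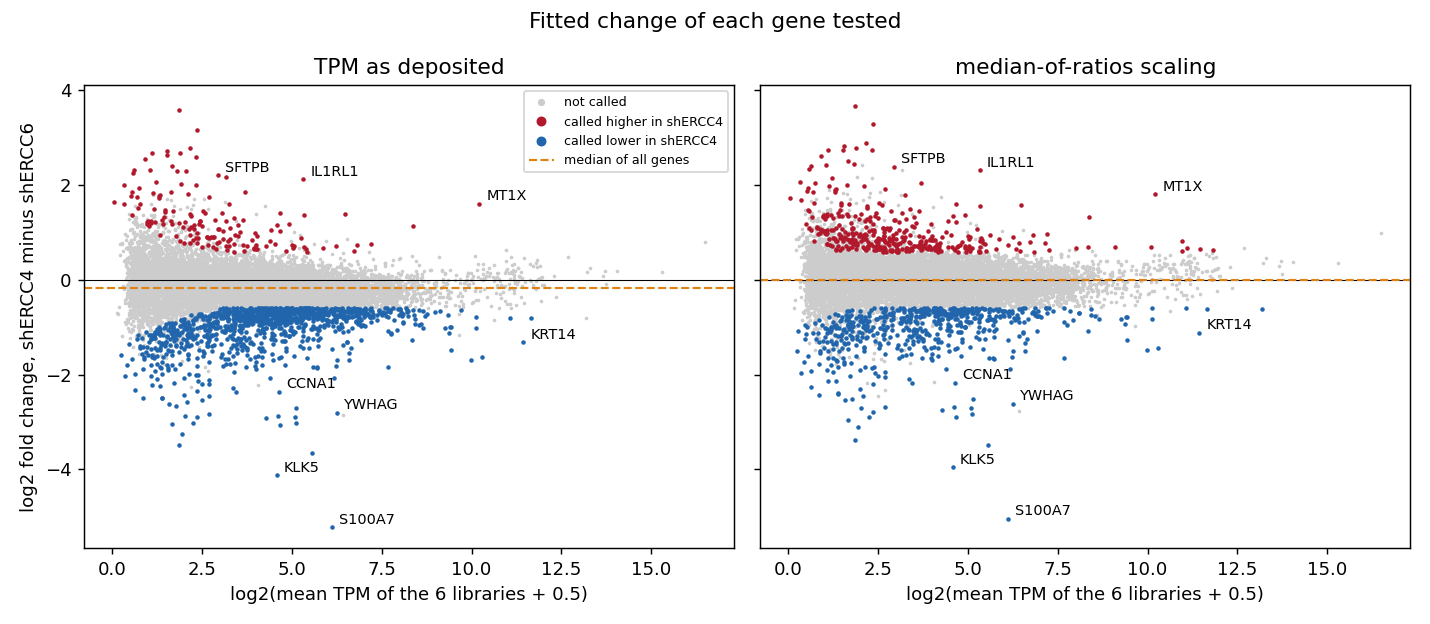
Each point is 1 gene tested, with the log2 of its mean TPM over the 6 libraries plus 0.5 on the x axis and its log2 fold change, shERCC4 minus shERCC6, on the y axis. With TPM as deposited, the calls lie mostly below 0 (1163 lower, 151 higher), and after median-of-ratios scaling 588 lower and 371 higher genes remain beyond the thresholds, with S100A7, KLK5 and YWHAG among the lower ones in both panels.

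The largest difference of the comparison was in S100A7 (psoriasin, chr1:153457744-153460701), an antimicrobial S100 protein of stressed and inflamed epithelium. It had 1.94, 1.98 and 7.41 TPM in shERCC4 and 136.4, 133.2 and 133.9 TPM in shERCC6, with 20.1 to 25.2 TPM in shCON. Every shERCC4 library was thus below the control and every shERCC6 library above it. The ratio of the means was 35.6 in favour of shERCC6, and the log2 fold change was -5.22 (SE 0.33, q = 3.23e-07), and -4.93 without shERCC4 replicate 1. Of 15 S100 members tested, 2 were lower and none was higher, with a list median of -0.47 against -0.18 over all genes. This count rested on the libraries used, since 7 were lower without shERCC4 replicate 3 (list median -0.63) and 1 without replicate 1. The other lower member was S100P (9.26, 11.4 and 24.1 TPM in shERCC4 against 25.2, 56.9 and 43.3 TPM in shERCC6, log2 fold change -1.50, SE 0.32, q = 0.0074), which did not pass without shERCC4 replicate 1 (q = 0.0885). S100A8, the partner of S100A9 in calprotectin, had 239.1, 339.1 and 1171 TPM in shERCC4 and 880.9, 1189 and 1040 TPM in shERCC6 (q = 0.0615), so that the third shERCC4 library overlapped with shERCC6. Without that library the difference was -1.85 (q = 8.43e-07).

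Kallikreins were among the genes with the largest decreases. Of 9 members tested, 8 were lower in shERCC4 and none was higher. Of these 8, 4 were under 1 TPM in every shERCC4 library, were tested only through shERCC6 and thus had to differ, so that the count is a description and the values below rest mainly on KLK5, KLK7, KLK8 and KLK10. The 8 genes were also called lower after scaling, and without each shERCC4 or shERCC6 library in turn 7 or 8 were called. KLK5 (chr19:50943303-50953093), which can activate other kallikreins and stands near the top of the skin cascade, had 1.53, 2.30 and 2.58 TPM in shERCC4 and 44.2, 41.9 and 48.4 TPM in shERCC6, with 32.5 to 37.4 TPM in shCON. No library of either line came near the other line, and the log2 fold change was -4.12 (SE 0.20, q = 2.47e-08). KLK7, the chymotrypsin-like enzyme of the stratum corneum, had 2.91, 3.49 and 10.7 TPM in shERCC4 and 47.0, 44.2 and 41.4 TPM in shERCC6, with 70.0 to 73.9 TPM in shCON (-3.06, SE 0.33, q = 5.34e-05). KLK8, a trypsin-like member also known as neuropsin, had 3.47, 5.69 and 16.5 TPM in shERCC4 and 67.2, 63.2 and 50.9 TPM in shERCC6 (-3.02, SE 0.37, q = 0.000139), and -3.61 without shERCC4 replicate 3. For both genes shERCC4 replicate 3 was the highest of its line and still below every shERCC6 library. KLK10, which was first described as a gene expressed in normal mammary epithelium, had 4.11, 9.30 and 11.03 TPM in shERCC4 and 55.7, 59.1 and 62.9 TPM in shERCC6, with 43.2 to 55.9 TPM in shCON (-2.89, SE 0.27, q = 2.11e-05). The shERCC6 level of KLK5 and KLK10 was thus at or above that of the control, and the shERCC4 level below it. KLK7, in contrast, was below the control in both lines.

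KLK6, KLK9, KLK11 and KLK14 were expressed at a low level, and were the 4 that entered the test through shERCC6. KLK9 had 0.41, 0.16 and 0.87 TPM in shERCC4 and 5.15, 4.93 and 6.22 TPM in shERCC6, and KLK14, another activator of the cascade, had 0.05, 0.18 and 0.75 TPM against 5.04, 3.52 and 3.23 TPM. KLK11 and KLK6 stayed below 3 TPM in all 6 libraries, with log2 fold changes of -1.58 (q = 0.00991) and -1.79 (q = 0.0154). The ninth member, KLK4, had 2.91, 1.21 and 5.52 TPM in shERCC4 and 3.36, 1.30 and 4.39 TPM in shERCC6, and its libraries overlapped completely (0.02, SE 0.43, q = 0.619).

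The genes of this list lie beside one another on chromosome 19. From KLK1, which was not tested, to KLK14 the locus spans 265.1 kb (chr19:50819148-51084245), and 10 of its genes were tested. The 8 lower genes were those from KLK5 to KLK11 together with KLK14. KLK4 and KLK2, at the other end, were not called (KLK2, named for its position after its values were seen, -0.69, q = 0.148). Another cluster, the epidermal differentiation complex on chromosome 1 (chr1:151982915-153632039), behaved less uniformly. Of its 25 genes tested, 7 were lower in shERCC4 (IVL, SPRR1A, SPRR3, SPRR1B, SPRR2D, SPRR2A and S100A7), 6 of them also after scaling, and none was higher.

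**Figure D2:**
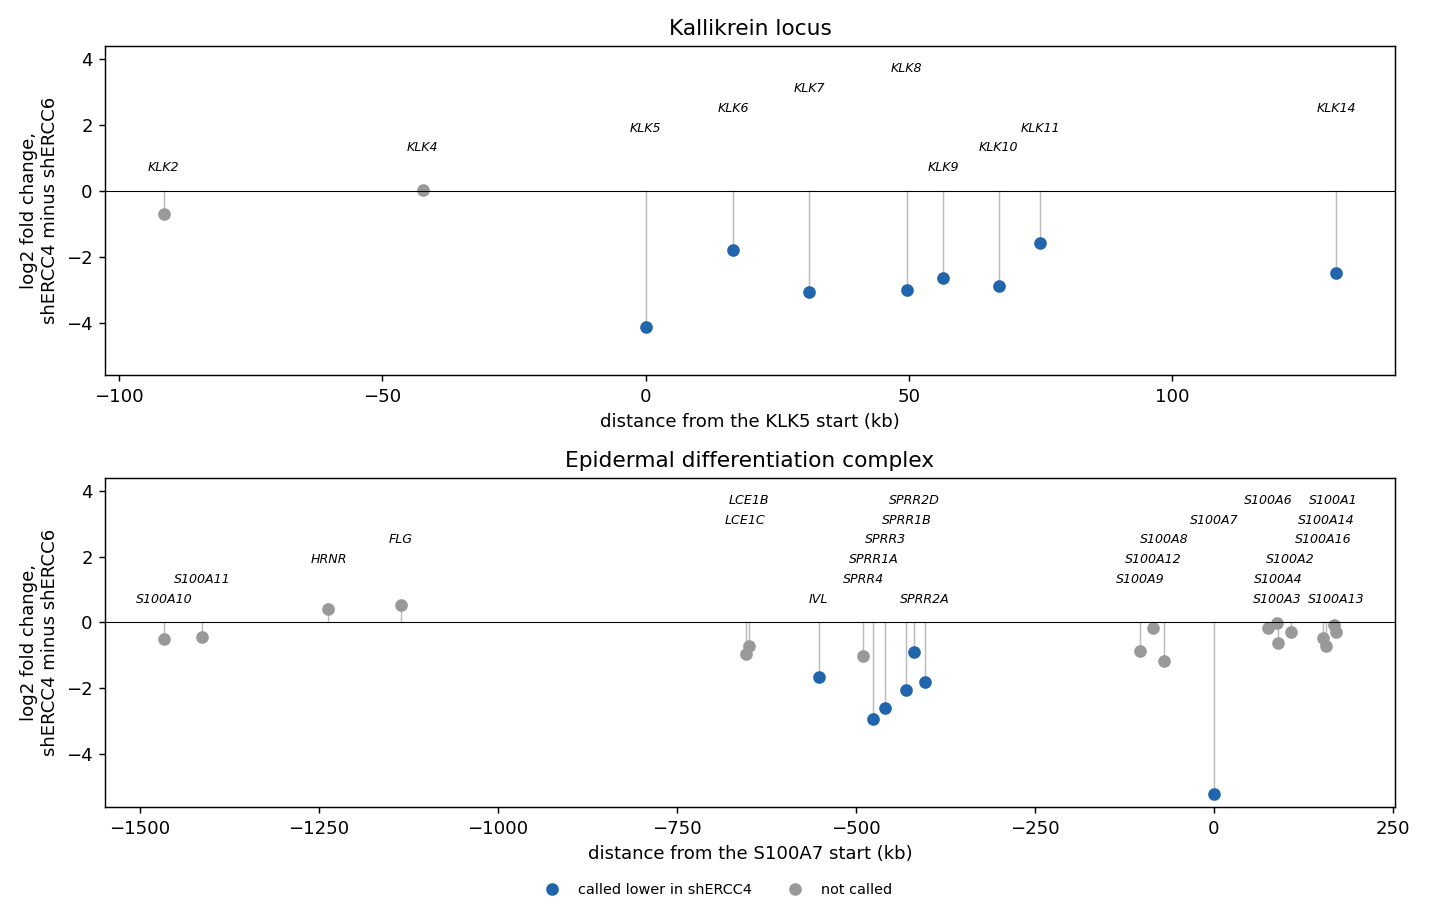
Log2 fold change, shERCC4 minus shERCC6, of each gene tested in the kallikrein locus (upper panel) and the epidermal differentiation complex (lower panel), against its distance in kb from the start of KLK5 or S100A7. In the upper panel 8 genes from KLK5 onward are lower in shERCC4 while KLK2 and KLK4 were not called, and in the lower panel the 7 lower genes are S100A7, IVL and 5 SPRR genes.

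Among the 15 largest decreases were also SPINK6, LGALS7B, LGALS7 and LCN2. SPINK6, a secreted Kazal-type inhibitor of kallikreins, had 0.39, 0.23 and 0 TPM in shERCC4 and 3.39, 7.28 and 8.71 TPM in shERCC6 (-3.25, SE 0.38, q = 0.000113), and it too was tested only through shERCC6. LGALS7B and LGALS7, a pair of near-identical genes for galectin-7, a lectin of stratified epithelia, had 3.03, 6.95 and 11.3 TPM and 0.36, 1.84 and 1.36 TPM in shERCC4, against 78.8, 77.2 and 101.0 TPM and 8.20, 14.3 and 9.69 TPM in shERCC6. The log2 fold changes were -3.66 (SE 0.32, q = 1.14e-05) and -2.82 (SE 0.34, q = 0.000143), and the division of reads between the copies is uncertain. LCN2 (lipocalin-2), which binds bacterial siderophores, had 0.22, 0.43 and 1.21 TPM in shERCC4 and 9.22, 7.36 and 7.36 TPM in shERCC6, with 5.66 to 8.93 TPM in shCON (-3.01, SE 0.33, q = 6.11e-05). The groups did not overlap for any of these genes, which the rule that picked the 15 required.

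Cornified envelope genes were lower in shERCC4 at 12 of 22 members tested, and none was higher. The list median was -0.99 (-0.18 over all genes), 10 were also lower after scaling, and 7 to 15 were called when each library was left out in turn, with 7 called without shERCC4 replicate 1. Of the 12, IVL and KRTDAP, both under 1 TPM in every shERCC4 library, were tested only through shERCC6 and thus had to differ. SPRR1A and SPRR1B, small proline-rich proteins that are crosslinked into the envelope, had 1.49, 2.28 and 13.8 TPM and 15.7, 21.2 and 55.2 TPM in shERCC4, against 36.0, 31.5 and 28.6 TPM and 111.0, 108.9 and 116.3 TPM in shERCC6. These 2 genes share sequence, and the division of reads between them is uncertain. For both, shERCC4 replicate 3 lay between the other shERCC4 libraries and shERCC6. The log2 fold change of SPRR1A was -2.92 (SE 0.49, q = 0.00165), -2.36 without shERCC4 replicate 1, where it did not pass (q = 0.052), and -3.78 without replicate 3. The log2 fold change of SPRR1B was -2.06 (SE 0.32, q = 0.000963). SPRR3 had 0.40, 0.47 and 1.41 TPM in shERCC4 and 8.07, 6.86 and 5.19 TPM in shERCC6, with 15.9 to 22.0 TPM in shCON (-2.59, SE 0.33, q = 0.000214), and IVL (involucrin), an early scaffold of the envelope, had 0.32, 0.25 and 0.62 TPM against 2.47, 2.42 and 2.03 TPM, with 6.26 to 8.60 TPM in shCON (-1.67, SE 0.36, q = 0.00852). In contrast to KLK5 and KLK10 but like KLK7, SPRR3 and IVL were below the control in both lines, with shERCC4 the lower one.

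The remaining lower members of the list were KRTDAP, PI3, DMKN, CALML3, SBSN, SPRR2A, SPRR2D and CSTA, with log2 fold changes between -2.86 (KRTDAP, a secreted peptide of differentiating keratinocytes) and -0.88 (DMKN and SPRR2D). PI3 (elafin), an elastase inhibitor anchored in the envelope, was the most even of them, with 24.0, 31.6 and 28.5 TPM in shERCC4 and 62.7, 73.4 and 65.3 TPM in shERCC6 (-1.25, SE 0.17, q = 0.000377). CSTA (cystatin A) and SPRR2A were not called after scaling (q = 0.0775 and 0.0619) nor without shERCC4 replicate 1 (q = 0.152 and 0.14), and without replicate 3 the SPRR2A difference was -2.55, against -1.81 with it. TGM1, the transglutaminase that crosslinks the envelope, had 26.3, 39.2 and 69.3 TPM in shERCC4 and 49.7, 44.8 and 64.7 TPM in shERCC6 (-0.33, q = 0.319), and the plakin PPL had 29.1, 39.3 and 46.3 TPM against 28.8, 30.4 and 33.0 TPM (0.29, q = 0.252). Neither separated the lines.

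Promoters of cornified envelope genes are shown because 8 of the 9 lower members with a RefSeq promoter (of 12) held the letters TGANTCA, the core of the AP-1 element, within 250 bases before the start on either strand. These were DMKN, IVL, KRTDAP, SBSN, SPRR1A, SPRR1B, SPRR2A and SPRR3. Over all 35116 RefSeq promoters 6.57% held it, and of the list members that were not called, 2 of 6 with a promoter (of 10) did. TATAAA, which does not overlap that motif in the promoters printed here, was found in 5 of the 9, in 3 of the 6 that were not called and in 10.7% of all promoters. The letters describe these windows only, and the motifs were chosen with the results known. The stretches below run 5′ to 3′ on the strand of the gene, from base -180 to base -2 (IVL and SPRR1B), -1 (SPRR1A) or -3 (SPRR3) counted from the RefSeq start, and have TGANTCA and TATAAA in capitals (RefSeq, GRCh38.p14). They are chr1:152908366-152908544 for IVL, chr1:152983901-152984080 for SPRR1A, chr1:153031023-153031201 for SPRR1B and chr1:153001569-153001746 for SPRR3, all on the plus strand.
IVL: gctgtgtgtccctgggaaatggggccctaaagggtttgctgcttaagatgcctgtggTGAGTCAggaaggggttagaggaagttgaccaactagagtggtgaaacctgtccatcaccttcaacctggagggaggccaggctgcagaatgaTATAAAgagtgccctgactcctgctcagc
SPRR1A: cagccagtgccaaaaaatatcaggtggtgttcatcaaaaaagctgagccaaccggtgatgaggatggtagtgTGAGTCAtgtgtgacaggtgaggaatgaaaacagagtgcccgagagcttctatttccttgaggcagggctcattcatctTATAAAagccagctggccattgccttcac
SPRR1B: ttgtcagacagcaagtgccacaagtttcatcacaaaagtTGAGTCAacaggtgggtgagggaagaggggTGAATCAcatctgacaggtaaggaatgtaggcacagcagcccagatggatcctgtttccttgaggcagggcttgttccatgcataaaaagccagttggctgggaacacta
SPRR3: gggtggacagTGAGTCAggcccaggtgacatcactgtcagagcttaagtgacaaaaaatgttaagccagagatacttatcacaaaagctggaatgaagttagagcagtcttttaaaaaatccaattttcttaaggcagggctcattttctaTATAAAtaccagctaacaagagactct

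In IVL, SPRR1A and SPRR3 a single TGANTCA began at -123, -108 and -170 from the start and TATAAA at -30, -29 and -29, whereas SPRR1B held TGANTCA at -141 and -111 and no TATAAA. None of the 7 lower kallikreins with a promoter (of 8) held TGANTCA, and neither did S100A7.

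**Figure D3:**
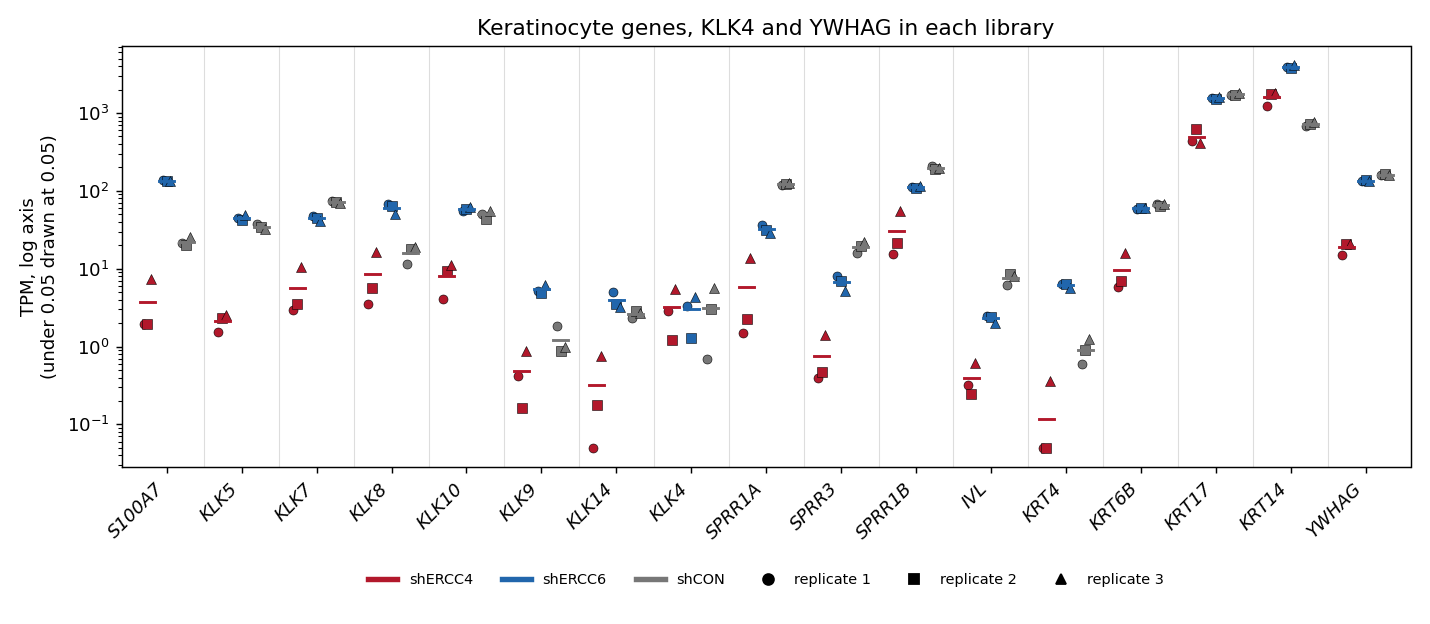
TPM on a log axis in each library of shERCC4, shERCC6 and shCON for differentiation genes, KLK4 and YWHAG, with symbols for replicates, horizontal bars for the line means and values under 0.05 TPM drawn at 0.05. Apart from KLK4, the shERCC4 libraries lie below the shERCC6 libraries in each gene, and shERCC4 replicate 3 (triangles) is the highest of its line for S100A7, KLK7, KLK8 and SPRR1A.

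Among keratins, the genes of basal and activated keratinocytes were lower in shERCC4 at 6 of 9 members (list median -1.32), the same number after scaling, and none was higher. KRT14 (chr17:41582279-41586921), the type I keratin of basal cells, had 1232, 1769 and 1804 TPM in shERCC4 and 3892, 3783 and 4128 TPM in shERCC6, with 677.9 to 763.7 TPM in shCON (-1.32, SE 0.23, q = 0.00209). Its partner KRT5 had 1769, 2491 and 2813 TPM in shERCC4 and 3865, 4146 and 4177 TPM in shERCC6, with 1753 to 1917 TPM in shCON (-0.81, SE 0.24, q = 0.0343). KRT14 was thus above the control in both lines, and KRT5 was within or above its range in shERCC4 and above it in shERCC6. KRT17, a keratin of wounded and hyperproliferative epithelium, showed another order, with 438.1, 630.3 and 406.5 TPM in shERCC4 and 1543, 1501 and 1605 TPM in shERCC6, against 1717 to 1816 TPM in shCON (-1.68, SE 0.21, q = 0.000164). KRT6B and KRT6C, also induced on wounding, were lower by -2.71 (SE 0.27, q = 3.7e-05) and -2.35 (SE 0.27, q = 9.45e-05), and the hair keratin KRT81 by -1.63 (SE 0.24, q = 0.000587), while KRT6A had 1031, 1408 and 1235 TPM in shERCC4 and 1764, 1774 and 1791 TPM in shERCC6 (-0.55, q = 0.0777). The KRT6 copies share most of their sequence, and the division of reads among them is uncertain.

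Suprabasal keratins and regulators of differentiation were lower at 11 of 16 members, 8 after scaling, and none was higher (list median -1.21). The count was 7 without shERCC4 replicate 1 and 14 without replicate 3. KRT4, a keratin of suprabasal cells in mucosal epithelia, had 0, 0 and 0.36 TPM in shERCC4 and 6.41, 6.34 and 5.73 TPM in shERCC6 (-3.47, SE 0.34, q = 3.68e-05), and 0.60 to 1.23 TPM in shCON. KRT1 and DSG1, a desmosomal cadherin of suprabasal cells, were likewise under 1 TPM in every shERCC4 library and entered the test through shERCC6. Among transcription factors, KLF4, which is required for the skin barrier, had 3.42, 4.51 and 6.96 TPM in shERCC4 and 13.4, 12.5 and 15.7 TPM in shERCC6 (-1.44, SE 0.24, q = 0.00149). GRHL3, OVOL1 and ZNF750, further regulators of epidermal differentiation, were lower by -1.29 (q = 0.00805), -1.62 (q = 0.011) and -1.51 (q = 0.0056), and GRHL3 was not called without shERCC4 replicate 1 (q = 0.0578). The libraries did not overlap for these 4 factors, as was the case in this direction for 26.6% of all genes tested. EHF, an epithelial ETS factor, had 46.5, 61.7 and 97.4 TPM in shERCC4 and 58.5, 60.3 and 58.2 TPM in shERCC6, and KRT10 differed by -0.18 (q = 0.53), so that neither was called.

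Clade B serpins, intracellular protease inhibitors of which several are keratinocyte proteins, were lower at 4 of 8 members (list median -0.82), the same number after scaling and 1 without shERCC4 replicate 1, and none was higher. SERPINB3 had 0.95, 1.06 and 2.73 TPM in shERCC4 and 8.86, 8.41 and 6.77 TPM in shERCC6 (-2.12, SE 0.31, q = 0.00053). SERPINB2, SERPINB13 and SERPINB7 were lower by -1.72, -1.75 and -1.12 (q = 0.00522, 0.0075 and 0.0301), and none of these 3 passed without shERCC4 replicate 1 (q = 0.0606, 0.0854 and 0.0597). Without replicate 3 the SERPINB13 difference was -2.35. SERPINB5 (maspin), a basal and myoepithelial protein, had 194.0, 258.3 and 249.2 TPM in shERCC4 and 325.0, 327.0 and 303.8 TPM in shERCC6 and did not pass (-0.46, q = 0.0909).

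Other genes with large decreases were not keratinocyte products. YWHAG (chr7:76326794-76359031), the gamma isoform of the 14-3-3 adaptor proteins, had 14.9, 20.8 and 20.8 TPM in shERCC4 and 131.9, 136.4 and 132.6 TPM in shERCC6, a log2 fold change of -2.81 (SE 0.18, q = 3.23e-07). The level was 159.0 to 164.4 TPM in shCON and 76.5 to 109.9 TPM in the 3 other lines of the series, so that shERCC4 lay far below every other line. CDC42EP5, an effector of the small GTPase CDC42, had 0.20, 1.44 and 0.75 TPM in shERCC4 and 7.82, 7.82 and 9.64 TPM in shERCC6 (-2.90, SE 0.34, q = 0.000106), and the pseudogene IGFL1P1 had 3.76, 8.59 and 4.66 TPM against 39.1, 37.9 and 50.7 TPM (-2.87, SE 0.25, q = 1.14e-05). CCNA1 (cyclin A1) and TREM2, a lipid receptor known from macrophages, were named after their values were seen. CCNA1 had 5.48, 8.45 and 9.28 TPM in shERCC4 and 40.1, 41.3 and 41.1 TPM in shERCC6, with 3.13 to 5.28 TPM in shCON (-2.36, SE 0.20, q = 1.14e-05). TREM2 had 4.04, 4.58 and 12.1 TPM in shERCC4 and 23.8, 22.1 and 26.0 TPM in shERCC6, with 0.57 to 0.83 TPM in shCON (-1.88, SE 0.30, q = 0.00112). For CCNA1, shERCC4 lay closer to the control and shERCC6 far above it. For TREM2 both lines were well above the control, and shERCC6 was the higher one. YWHAG, in contrast, was below the control in both lines.

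Genes of the TGF-beta response were lower at 9 of 21 members and higher at 1, with a list median of -0.20 close to that of all genes, and the counts were the same after scaling. Without shERCC4 replicate 1, 6 were lower and none was higher, and without replicate 3, 9 were lower and 3 were higher, and 2 were higher without each shERCC6 library in turn. THBS1 (thrombospondin-1), a matrix protein that can activate latent TGF-beta, had 21.5, 20.6 and 19.7 TPM in shERCC4 and 81.1, 76.9 and 67.9 TPM in shERCC6, against 280.4 to 330.6 TPM in shCON (-1.84, SE 0.17, q = 1.58e-05). Both lines were thus far below the control for this gene, and shERCC4 was the lower one. The ligands TGFB1 and TGFB2 were lower by -1.06 (q = 0.00303) and -1.49 (q = 0.00728), and the receptor TGFBR1 by -0.84 (q = 0.0177). The single higher member was ID2, an inhibitor of basic helix-loop-helix factors, with 6.54, 11.95 and 3.53 TPM in shERCC4 and 3.70, 2.32 and 1.79 TPM in shERCC6. Its libraries overlapped, and it did not pass without shERCC4 replicate 1 (q = 0.129).

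Metalloproteinases and plasminogen activators were lower at 7 of 13 members, 6 after scaling, and none was higher (list median -0.74). PLAU (urokinase) had 8.12, 10.6 and 10.1 TPM in shERCC4 and 23.6, 25.9 and 25.3 TPM in shERCC6 (-1.34, SE 0.18, q = 0.000306), and its receptor PLAUR was lower by -1.01 (SE 0.19, q = 0.00362). MMP2 and MMP28 were lower by -1.39 (q = 0.00299) and -0.94 (q = 0.0103), as was the inhibitor TIMP3 (-1.27, SE 0.20, q = 0.00113), whereas MMP14, the membrane-type activator of MMP2, was not called (-0.41, q = 0.118). Of the IGF binding and insulin signalling list, 4 of 10 members were lower (40%, against 8.15% of all genes tested) and none was higher. As deposited and after scaling, the 4 were IGFBP2, IGFBP7, IGFBP6 and IGFBP4, all binding proteins. IGFBP2 had 5.63, 6.64 and 6.51 TPM in shERCC4 and 16.9, 19.7 and 23.3 TPM in shERCC6 (-1.59, SE 0.19, q = 0.000133).

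Stress-response genes were lower in part. Of 26 genes of the unfolded protein and integrated stress response, 10 were lower and none was higher as deposited (list median -0.56), and 5 were lower and 1 higher both after scaling and without shERCC4 replicate 1. Without shERCC6 replicate 3, 6 were lower. TRIB3, a pseudokinase induced by ATF4, had 25.4, 34.7 and 38.8 TPM in shERCC4 and 112.0, 113.5 and 120.5 TPM in shERCC6, with 26.2 to 29.6 TPM in shCON (-1.81, SE 0.18, q = 3.91e-05). CHAC1, a glutathione-degrading enzyme of the same programme, had 1.31, 1.14 and 0.70 TPM in shERCC4 and 5.65, 4.84 and 7.57 TPM in shERCC6 (-2.07, SE 0.29, q = 0.000377), and ASNS (asparagine synthetase) was lower by -0.96 (q = 0.00339). In TRIB3 the shERCC4 libraries lay near the control and the shERCC6 libraries above it. XBP1, whose spliced form is the effector of the IRE1 branch, had 18.9, 28.2 and 24.2 TPM in shERCC4 and 53.3, 55.1 and 54.2 TPM in shERCC6, with 71.4 to 78.7 TPM in shCON (-1.19, SE 0.18, q = 0.000876). These values are for the whole gene and do not separate the spliced form. The chaperone HSPA5, the usual mark of unfolded proteins, was not called (-0.35, q = 0.157), and DDIT3 (CHOP), at 9.17, 13.4 and 16.3 TPM in shERCC4 and 8.86, 7.63 and 9.38 TPM in shERCC6, was not called as deposited and was the member called higher after scaling (0.71, q = 0.0175) and without shERCC4 replicate 1 (0.75, q = 0.0324). The members therefore did not move alike.

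Growth-factor genes showed decreases of moderate size. Among the EGF receptor family and its ligands, 4 of 13 were lower (30.8%, against 8.15% of all genes tested), or 2 after scaling, and none was higher. All 4 were ligands: HBEGF, AREG, EPGN and EREG. The number lower was 7 without shERCC4 replicate 3, and 2 without either shERCC4 replicate 1 or shERCC6 replicate 2. HBEGF had 5.02, 5.52 and 5.88 TPM in shERCC4 and 14.7, 16.4 and 14.3 TPM in shERCC6 (-1.39, SE 0.19, q = 0.000306). AREG (amphiregulin) had 162.6, 238.5 and 171.9 TPM against 345.8, 346.2 and 364.6 TPM (-0.90, SE 0.19, q = 0.00685). The receptor EGFR was not called (-0.41, q = 0.0997). AP-1 and immediate early genes were lower at 8 of 21 members (38.1%, against 8.15% of all genes tested), or 4 after scaling. None was higher as deposited, and DUSP1 was higher after scaling (0.63, q = 0.0399). The number lower was 5 without shERCC4 replicate 1, 3 without shERCC6 replicate 3 and 11 without shERCC4 replicate 3. The lower ones were led by ETV4 (-1.18, SE 0.17, q = 0.000596), an ETS factor downstream of ERK signalling, PHLDA1 (-1.06, q = 0.00188) and the ERK phosphatase DUSP4 (-0.89, q = 0.00788), and JUN was lower as deposited only (-0.69, q = 0.0269, and -0.50 after scaling, under the fold threshold).

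Genes of cholesterol and fatty acid synthesis were lower at 11 of 31 members as deposited (35.5%, against 8.15% of all genes tested). After scaling 3 were lower, and none was higher either way. Leaving out a library gave between 3 (without shERCC4 replicate 1 or shERCC6 replicate 3) and 13 (without shERCC4 replicate 3), with 7, 5 and 4 without shERCC4 replicate 2 and shERCC6 replicates 1 and 2. The 3 genes lower after scaling were SCD, a fatty acid desaturase (-1.27, SE 0.23, q = 0.00247), FDPS, which makes farnesyl diphosphate (-1.02, SE 0.19, q = 0.00367), and FDFT1 (squalene synthase, -0.94, SE 0.18, q = 0.00459). FDPS had 326.2, 440.5 and 458.1 TPM in shERCC4 and 805.5, 812.6 and 846.4 TPM in shERCC6. The other 8 were within -0.75 and -0.59 on the log2 scale as deposited, and their calls were lost on scaling because they fell under the fold threshold.

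**Figure D4:**
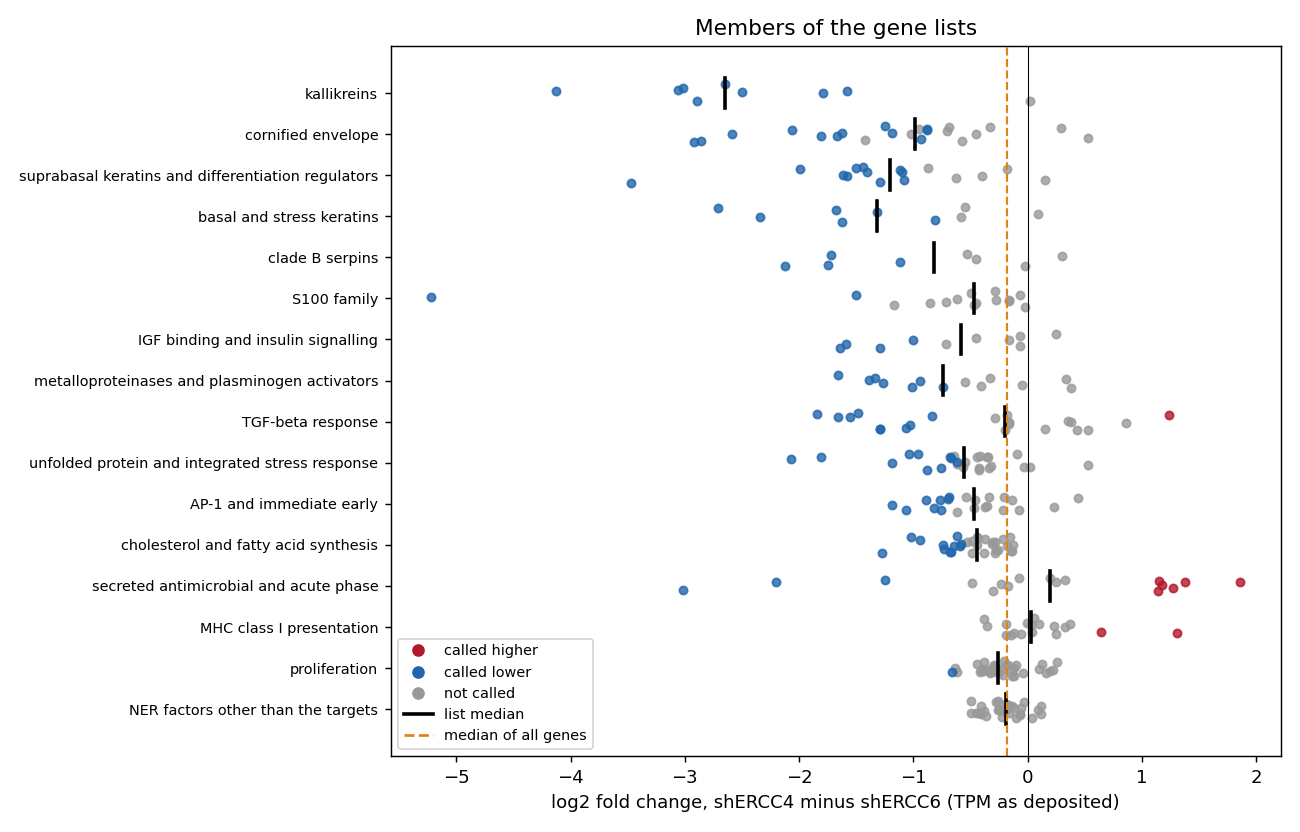
Each point is 1 tested member of a gene list at its log2 fold change, shERCC4 minus shERCC6, with TPM as deposited. Black bars mark list medians and the dashed line the median of all genes (-0.18). The kallikreins lie farthest to the left (median -2.65, with 4 of the 8 lower members tested only through shERCC6), the secreted antimicrobial and acute phase genes fall on both sides, and the excision repair genes lie around the median of all genes.

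Fewer genes were higher in shERCC4. The first by size was SFTPB (chr2:85657314-85668741), the gene of surfactant protein B, with 10.3, 13.4 and 12.98 TPM in shERCC4 and 2.62, 2.03 and 2.07 TPM in shERCC6, and 4.36 to 6.03 TPM in shCON (2.21, SE 0.22, q = 3.7e-05). The second was IL1RL1 (ST2, chr2:102311502-102352037), the receptor of interleukin-33, with 46.0, 64.4 and 84.8 TPM in shERCC4 and 15.9, 13.7 and 13.01 TPM in shERCC6 (2.12, SE 0.21, q = 3.7e-05). IL1RL1 was at 2.48 to 3.14 TPM in shCON and at 1.56 to 7.31 TPM in the 3 other lines, so that both lines were above all others and shERCC4 was the highest of all. Its ligand IL33 was at 0.64 to 2.41 TPM in the 6 libraries and was not called (0.53, q = 0.279). Of the 9 interleukin-1 family members tested, IL1RL1 was higher and 2 were lower: the ligand IL1A (8.05, 9.93 and 6.79 TPM in shERCC4 against 16.2, 16.9 and 15.4 TPM in shERCC6, -0.94, SE 0.19, q = 0.00623) and the receptor antagonist IL1RN (-1.39, SE 0.36, q = 0.0215), which did not pass after scaling (q = 0.0563) or without shERCC4 replicate 1 (q = 0.117). The receptor IL1R1 was called higher after scaling (0.82, q = 0.011) and without shERCC4 replicate 1 (0.81, q = 0.0319), but not as deposited.

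Secreted defence proteins fell into 2 opposite sets. Of 17 antimicrobial and acute phase genes tested, 6 were higher and 3 were lower in shERCC4, with a list median of 0.20. The same counts were obtained after scaling and without each library in turn. The higher genes included C1R, C1S, CFI, LTF and SERPINA3. C1R and C1S encode the proteases of the first complement component and lie near each other on chromosome 12. C1R had 44.5, 57.8 and 70.7 TPM in shERCC4 and 21.1, 24.3 and 19.6 TPM in shERCC6 (1.37, SE 0.19, q = 0.00043), and C1S had 23.9, 29.4 and 46.7 TPM against 14.6, 12.9 and 15.03 TPM (1.15, SE 0.22, q = 0.00424). In both genes the shERCC6 libraries were near the 3 shCON libraries (16.5 to 18.5 TPM for C1R, and 13.8 to 16.3 TPM for C1S). The complement inhibitor CFI had 12.6, 16.5 and 22.7 TPM in shERCC4 and 5.29, 7.67 and 7.31 TPM in shERCC6 (1.27, SE 0.23, q = 0.00295). SERPINA3 (antichymotrypsin) had 311.9, 415.6 and 654.5 TPM in shERCC4 and 197.7, 204.7 and 197.1 TPM in shERCC6 (1.14, SE 0.23, q = 0.006), and LTF (lactoferrin) 2.84, 3.59 and 6.74 TPM against 0.61, 1.11 and 0.67 TPM (1.86, SE 0.35, q = 0.00342). The 3 lower members were LCN2, PI3 and the beta-defensin DEFB1 (1.36, 1.86 and 2.25 TPM in shERCC4 against 9.85, 12.2 and 8.54 TPM in shERCC6, -2.20, SE 0.24, q = 7.01e-05). The central component C3 was not called (364.5, 460.3 and 480.7 TPM in shERCC4 against 388.1, 369.6 and 374.4 TPM in shERCC6, 0.20, q = 0.356).

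MT1X (chr16:56682424-56684196), a metallothionein that binds zinc and copper, was the most abundant of the higher genes named here. It had 1405, 1991 and 1996 TPM in shERCC4 and 608.5, 545.2 and 591.3 TPM in shERCC6, with 289.3 to 331.6 TPM in shCON (1.61, SE 0.21, q = 0.000209). The other metallothioneins, named after their values were seen, did not all follow. MT1F had 10.7, 14.98 and 12.8 TPM in shERCC4 and 5.32, 5.47 and 6.22 TPM in shERCC6 and was higher (1.10, SE 0.20, q = 0.00298), MT1E had 525.0, 736.3 and 648.1 TPM against 419.2, 488.2 and 440.8 TPM and was higher after scaling (0.69, q = 0.00372) and without shERCC4 replicate 1 (0.62, q = 0.0205) but not as deposited (0.49, q = 0.0896), and MT2A, at 4504, 6746 and 4235 TPM against 4751, 4669 and 4926 TPM, was not called (0.08, q = 0.555). These genes are close paralogs, and reads may be divided among them with error. The promoter of MT1X is shown for its metal response elements, since it held TGCACNC at -122 and -78 and TGCGCNC at -150 and -53, counting both strands. Over all RefSeq promoters 24.8% held either motif and 0.37% held 4 or more matches. The stretch below (chr16:56682290-56682423, plus strand, RefSeq, GRCh38.p14) runs from base -180 to base -47 from the RefSeq start, where a GENCODE exon of the gene begins, and has both motifs in capitals, which mark matches on either strand.
MT1X: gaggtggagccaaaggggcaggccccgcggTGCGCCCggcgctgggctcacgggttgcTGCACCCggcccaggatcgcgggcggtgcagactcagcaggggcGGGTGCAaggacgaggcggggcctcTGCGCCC

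Further higher genes were C12orf39, ACSL5, HSD17B2, ADH1B, MME, APOL1, PSMB9 and RHOBTB3. C12orf39, which encodes the peptide spexin, had 13.2, 19.2 and 27.8 TPM in shERCC4 and 4.62, 4.74 and 5.50 TPM in shERCC6 (1.86, SE 0.24, q = 0.000223). ACSL5, an acyl-CoA synthetase, had 5.24, 5.24 and 8.50 TPM against 1.61, 1.23 and 1.38 TPM (1.81, SE 0.27, q = 0.000749), and HSD17B2, which oxidises estradiol and testosterone, had 13.1, 18.9 and 9.91 TPM against 3.66, 4.27 and 4.41 TPM (1.61, SE 0.24, q = 0.000587). MME (neprilysin, CD10), a membrane peptidase of myoepithelial cells, had 94.9, 128.7 and 168.7 TPM in shERCC4 and 46.8, 45.8 and 51.9 TPM in shERCC6, with 34.0 to 39.6 TPM in shCON (1.39, SE 0.20, q = 0.000549). No library of the lines overlapped in MME, ACSL5 or the other genes of the 15 largest increases, because the choice of these genes required it. ADH1B, an alcohol dehydrogenase, rested more on shERCC4 replicate 3, with 18.5, 25.0 and 70.6 TPM in shERCC4 and 10.5, 13.8 and 11.2 TPM in shERCC6 (1.41, SE 0.35, q = 0.0161, and 0.84 without that library). PSMB9, an immunoproteasome subunit, had 12.9, 19.2 and 11.6 TPM against 4.12, 7.28 and 5.32 TPM (1.31, SE 0.24, q = 0.00321). It was with HLA-B (43.9, 55.4 and 54.4 TPM in shERCC4 and 29.3, 34.7 and 33.6 TPM in shERCC6, 0.64, SE 0.17, q = 0.025) 1 of the 2 higher members among 18 genes of MHC class I presentation, in which none was lower. The 2 made up 11.1% of the list, against 1.06% higher among all genes tested. Of these 18 genes, 3 were higher without shERCC4 replicate 1, and 1 without shERCC4 replicate 2 or any one of the shERCC6 libraries. For HLA-B both lines were below the 85.4 to 93.5 TPM of shCON. The 15 largest increases also included HIST1H1PS1, HIST1H2APS4 and RPS15AP10, pseudogene entries at 13.7 TPM or less in these libraries whose reads can be shared with their parent genes, and these were the 3 of the 15 that did not pass under every omission of a library (without shERCC4 replicate 1, q = 0.06, 0.0872 and 0.118). Of the 15 largest decreases, 14 passed under every omission, the exception being SPRR1A.

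**Figure D5:**
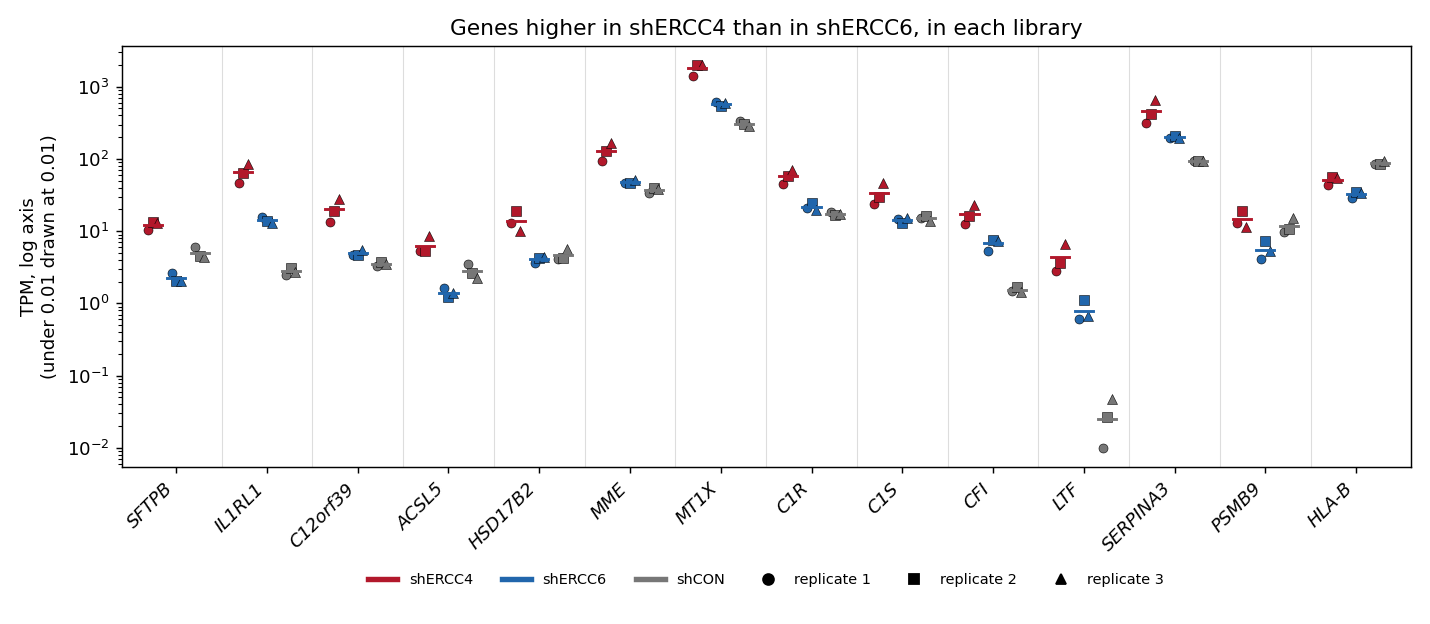
TPM on a log axis in each library of shERCC4, shERCC6 and shCON for genes higher in shERCC4, with symbols for replicates and horizontal bars for the line means. The shERCC4 libraries lie above the shERCC6 libraries in every gene drawn, while the place of shCON differs, from below both lines in IL1RL1 and MT1X to above both in HLA-B.

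No gene of the DNA repair lists passed the thresholds with all 6 libraries. Of 32 further nucleotide excision repair factors, 25 genes of crosslink repair and homologous recombination and 25 transcription elongation genes, none was called either way, as deposited or after scaling, and their list medians (-0.19, -0.16 and -0.19) lay near that of all genes. The count of members at an unadjusted p under 0.05 was 5 for the excision repair factors (15.6%), 2 for crosslink repair (8%) and 6 for elongation (24%), against 22.4% of all genes tested. When shERCC4 replicate 2 was left out, 1 excision repair factor, 1 crosslink repair gene and 2 elongation genes were lower. Of 36 proliferation genes 1 was lower as deposited (MCM4, the replicative helicase subunit) and none after scaling, but 6 were lower without shERCC4 replicate 2 and none without shERCC6 replicate 1 or 3. Of 22 p53 targets 4 were lower (18.2%, against 8.15% of all genes tested), or 2 after scaling, and none was higher. The list median was -0.45, and 12 members (54.5%) had an unadjusted limma p under 0.05, against 22.4% of all genes tested. The number lower was 2 without shERCC4 replicate 1 or any one of the shERCC6 libraries. It was 6 without shERCC4 replicate 2 and 4 without shERCC4 replicate 3. The p53 list was led by GDF15, a stress cytokine that other pathways also induce, with 8.71, 14.1 and 8.28 TPM in shERCC4 and 34.8, 30.6 and 34.8 TPM in shERCC6 (-1.68, SE 0.21, q = 0.000161), and SFN (14-3-3 sigma, -0.99, SE 0.21, q = 0.00724). CDKN1A (p21) had 86.0, 124.0 and 77.2 TPM in shERCC4 and 144.3, 158.2 and 152.4 TPM in shERCC6, with 254.5 to 297.0 TPM in shCON, and was lower as deposited (-0.69, SE 0.19, q = 0.0285) but not after scaling (q = 0.0602). MDM2 was not called (-0.30, q = 0.208).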

How the data were processed

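RNA was sequenced after rRNA depletion from 18 MCF-10A libraries (6 lines, 3 each). The authors quantified reads with kallisto against hg38 and deposited a table of TPM, which are relative to the sum of each library and hold no read numbers. The submitters' processing notes name kallisto 0.43.1. Here TPM were transformed as log2(TPM + 0.5) and genes with at least 1 TPM in 3 of the 6 shERCC4 and shERCC6 libraries were fitted with limma 3.58.1 (R 4.3.3, trend in the prior variance), with Storey q-values (lambda 0.5) and calls at q below 0.05 and above 1.5-fold, as in the study's criteria. Fold changes are shERCC4 minus shERCC6 on the log2(TPM + 0.5) scale and understate changes of low genes. Median-of-ratios scaling, other pseudocounts and filters, and omission of each library were alternatives, and 2 were added after seeing the data. The script was tested on simulated data. Named genes were the targets, the 15 largest changes each way called both as deposited and scaled, without overlap and at 5 TPM or more, and members of 50 gene lists. Members, lists and rules were chosen with earlier results of these data known. Positions are from GENCODE (GRCh38). A few results are not reported here.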

Additional observations from a re-analysis of the deposited data

How the results depend on the processing

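Against 151 higher and 1163 lower genes as deposited, the counts were 371 and 588 with median-of-ratios scaling, 345 and 564 with quantile normalization, 351 and 716 without clone-named entries, 82 and 428 without a filter, 8 and 68 with the fold threshold inside the test and 6 and 44 without moderated variances. With all 18 libraries in the fit 251 genes were higher and 1435 lower. Leaving out each library in turn gave 92 to 208 higher and 567 to 1703 lower genes, with the fewest lower genes without shERCC4 replicate 1 and 749 and 671 without shERCC6 replicates 2 and 3. Scaling without shERCC4 replicate 1 left 400 lower genes. In alternatives chosen after seeing the data, scaling without shERCC4 replicate 3 gave 397 higher and 683 lower genes, and library weights with scaling 505 and 706. With a replicate block, 260 genes were higher and 1372 lower. Same-numbered libraries did not deviate together (correlations of 0.06, 0.02 and -0.03, with 1 of 3 shERCC4 and 2 of 3 shERCC6 libraries closest to their own number), so that the numbers were not taken as pairs. The median log2 fold change of -0.18 was 0.01 with scaling, 0.03 with quantile normalization and -0.04 without clone-named entries, so that its sign depends on the scaling. ERCC4 passed the threshold with a filter of 5 TPM (-0.64, q = 0.0481) and in the fit of all 18 libraries (q = 0.0214). It did not pass with scaling (-0.45, q = 0.0727). Nor did it pass without any one library, with q between 0.0543 (without shERCC4 replicate 3) and 0.234 (without shERCC6 replicate 1).

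A few genes that were not called changed sign. KLK4 was at -0.112 with library weights, at -0.203 with scaling and without shERCC4 replicate 3, and between -0.42 and 0.48 when each library was left out, being below 0 without shERCC4 replicates 1 (-0.013) and 3 and without shERCC6 replicate 2 (-0.408). KRT10 was at 0.016 with scaling, 0.084 with quantile normalization, 0.018 with library weights and 0.40 with scaling and without shERCC4 replicate 1, and between -0.94 and 0.33 when each library was left out, being above 0 without shERCC4 replicates 1 and 2 (0.071). MT2A was at -0.030 with quantile normalization and between -0.13 (without shERCC4 replicate 2) and 0.21 when each library was left out, EHF between -0.14 (without shERCC4 replicate 3) and 0.39, and TGM1 at 0.059 with scaling and without shERCC4 replicate 1. No called gene named here changed direction under any alternative run, but 5 of the 116 were called under every alternative. Depth is unknown, and genes at a few TPM carry the least certain values.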

Other observations

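A few genes of other groups were called. Of 29 interferon-stimulated genes, 3 were lower in shERCC4 (10.3%, against 8.15% of all genes tested) and 1 was higher (3.45%, against 1.06%). The number lower was 5 without shERCC4 replicate 2 or 3, and 2 without shERCC6 replicate 2 or 3. The number higher was 2 without shERCC4 replicate 1. IFI27 had 4.91, 3.67 and 2.81 TPM in shERCC4 and 8.81, 17.1 and 17.6 TPM in shERCC6 (-1.77, SE 0.27, q = 0.000903), and the antiviral enzyme gene OAS3 had 15.1, 16.9 and 17.6 TPM against 30.0, 30.1 and 27.3 TPM (-0.80, SE 0.17, q = 0.00738). IFI44L went the other way, with 23.8, 28.1 and 34.4 TPM in shERCC4 and 13.4, 14.3 and 12.96 TPM in shERCC6 (1.04, SE 0.18, q = 0.00249). Of 13 chemokines and cytokines, 1 was lower (7.69%, against 8.15% of all genes tested) and 1 was higher (7.69%, against 1.06%). The same counts were obtained after scaling and without each library in turn. The neutrophil attractant CXCL1 was lower (60.3, 80.6 and 62.2 TPM in shERCC4 and 138.0, 134.8 and 137.9 TPM in shERCC6, -1.02, SE 0.17, q = 0.00175), and CSF1, the macrophage growth factor, was higher (17.0, 24.0 and 14.9 TPM against 10.3, 9.21 and 10.3 TPM, 0.85, SE 0.20, q = 0.0139).

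Among epithelial junction genes 8 of 21 were lower (38.1%, against 8.15% of all genes tested) and none was higher. After scaling 3 were lower and 1 was higher, where 4.11% of all genes were lower and 2.6% higher. Without a library the number lower was 3 (shERCC4 replicate 1 or shERCC6 replicate 3), 4 (shERCC6 replicate 2), 5 (shERCC6 replicate 1), 6 (shERCC4 replicate 2) or 10 (shERCC4 replicate 3). The 3 lower after scaling were ESRP1, an epithelial splicing regulator (13.3, 18.1 and 19.1 TPM in shERCC4 against 40.0, 40.5 and 33.8 TPM in shERCC6, -1.17, SE 0.19, q = 0.00122), the membrane protease ST14 (-0.93, q = 0.00536) and the tight junction protein OCLN (-0.81, q = 0.025). Small heat shock proteins made up the 3 lower genes among 15 heat shock genes (20%, against 8.15% of all genes tested). Leaving out each library in turn gave 2 to 4 lower. HSPB1 had 352.6, 571.5 and 474.0 TPM in shERCC4 and 813.1, 867.8 and 1050 TPM in shERCC6 (-0.98, SE 0.21, q = 0.00815), CRYAB was lower by -1.37 (q = 0.00392) and HSPB8, tested only through shERCC6, by -1.36 (q = 0.0352). Of 23 sphingolipid genes, 3 were lower as deposited (13%, against 8.15% of all genes tested) and none was higher. Leaving out each library in turn gave 1 to 5 lower. The ceramide synthase CERS4 was the 1 also lower after scaling, where 4.11% of all genes were lower. CERS4 had 0.42, 0.63 and 1.25 TPM in shERCC4 and 5.45, 7.93 and 5.15 TPM in shERCC6 (-2.43, SE 0.32, q = 0.000246).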
